A study of Mus musculus with 8 samples.

Results

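The genes of MHC class I and class II antigen presentation were examined in the kidneys of mice lacking Tsc1 in principal cells. The members were the genes whose symbol begins with H2- (the mouse MHC, any gene type, pseudogenes included) together with B2m, Tap1, Tap2, Tapbp, Cd74, Ciita, Nlrc5 and Erap1. This rule, which uses names and no measured value, gave 43 of the 30587 genes in the count table. Poly(A) RNA of total kidney was sequenced at 28 days of age in 4 libraries labelled Tsc1-KO (Tsc1f/f/Aqp2 Cre, numbered 5 to 8) and 4 libraries labelled WT (C57BL/6, numbered 1 to 4). In the Tsc1-KO mice, floxed Tsc1 is deleted by a Cre recombinase under the Aqp2 promoter, which is active in the principal cells of the collecting duct, and the labels place these mice on C57BL/6. The RNA came from the whole organ, so fewer or more cells of a type and less or more RNA per cell cannot be told apart. Whether every library stands for its own animal is not in the labels. The p-values therefore cover the spread of these libraries, which may be partly technical. Each Tsc1-KO library had its own pattern of Y-linked and H2-Ea-ps reads (given below). WT libraries came with and without Y-linked reads, so neither group was repeats of 1 animal.

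MHC class I molecules sit on nearly all nucleated cells and show peptides from the inside of the cell to CD8+ T cells. Each consists of a heavy chain and the light chain beta2-microglobulin, and the peptides are carried into the endoplasmic reticulum by the TAP transporter. MHC class II molecules are made mainly by dendritic cells, macrophages and B cells, and show peptides from taken-up proteins to CD4+ T cells. CIITA is the main transactivator of class II genes and NLRC5 that of class I genes, and interferon gamma is a well-known inducer of both classes.

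The libraries held 26453073 to 31226739 counts, and no pair agreed within sampling noise (smallest chi-square per degree of freedom 17.2). Tsc1 had 65.9, 34.03, 51.4 and 47.6 CPM (read counts scaled by library size with TMM factors and put on the usual CPM scale) in Tsc1-KO libraries 5, 6, 7 and 8, against 42.8, 55.3, 54.4 and 53.3 CPM in WT libraries 1, 2, 3 and 4. The level of Tsc1 in whole kidney overlapped between the genotypes (log2 fold change -0.05, edgeR quasi-likelihood test, Benjamini-Hochberg adjusted p = 0.933). Tsc1-KO 7, Tsc1-KO 8, WT 3 and WT 4 carried 3945 to 6001 Y-linked reads, and the others carried 0 to 8. Tsc1-KO 5 and Tsc1-KO 8 stood apart in several members, most of all in H2-Ea-ps, with 560 and 704 reads against 0 or 1 read in the 6 other libraries, although C57BL/6 mice do not express this gene, and the called members are given below with and without them.

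The promoters of 29 members were matched by symbol in RefSeq (build GRCm38.p6, 250 bases before to 50 after the start), and 5 stretches are shown because they belong to B2m and H2-DMb2, which changed, and to 3 class II genes set beside them. They were chosen after the values were seen. Each runs 5′ to 3′ along the gene's strand over 120 bases, from position -150 to -31 relative to the start. Capitals mark matches on either strand to the letters of the Y box (CCAAT), the X1 box core (AG, any base, AAC, any base, G, any base, TG) or the interferon-stimulated response element (GAAA, a gap of 2 bases, GAAA). The stretches lie at chr2:122147537-122147656 (plus strand), chr17:34145099-34145218 (plus strand), chr17:34153041-34153160 (plus strand), chr17:34287854-34287973 (minus strand) and chr17:34305717-34305836 (plus strand).
B2m: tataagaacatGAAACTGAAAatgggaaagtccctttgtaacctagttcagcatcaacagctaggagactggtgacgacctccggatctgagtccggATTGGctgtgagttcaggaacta
H2-DMb2: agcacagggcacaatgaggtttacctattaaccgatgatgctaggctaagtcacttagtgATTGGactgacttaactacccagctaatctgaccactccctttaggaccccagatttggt
H2-DMb1: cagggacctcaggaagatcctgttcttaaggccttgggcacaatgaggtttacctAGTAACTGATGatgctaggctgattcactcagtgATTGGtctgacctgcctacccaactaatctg
H2-Aa: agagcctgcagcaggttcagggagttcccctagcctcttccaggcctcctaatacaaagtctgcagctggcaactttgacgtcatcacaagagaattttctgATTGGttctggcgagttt
H2-Eb1: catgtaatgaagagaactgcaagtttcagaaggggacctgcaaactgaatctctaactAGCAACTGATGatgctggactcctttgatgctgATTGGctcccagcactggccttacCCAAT
The Y box letters were found in all 5, and the X1 core in H2-DMb1 and H2-Eb1. The interferon-stimulated response element was found in B2m of these 5.

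Among all member promoters, the Y box letters stood in 26 of 29 genes, against 37.4% of the 32851 RefSeq promoters. For class II genes, DM and DO genes included, they stood in 8 of 8. The X1 core stood in 3 of 29 genes (H2-DMb1, H2-Eb1 and H2-Eb2), against 1.18% of all promoters. The interferon-stimulated response element stood in 4 of 29 (B2m, Erap1, H2-T22 and H2-T23), against 3.44%, and the gamma-activated site (TTCNNNGAA) in 2 of 29 (H2-DMb2 and H2-M3), against 8.30%. Member genes counted when any of their promoters matched, while the percentages are shares of single promoters, so the units differ. Both strands were searched, the matches describe letters alone, and binding was not measured.

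Of the 43 members, 33 passed the filter on low counts and were tested. B2m, Ciita and H2-DMb2 were higher in Tsc1-KO kidneys and none was lower at an adjusted p under 0.05. Across all 18048 tested genes, 632 (3.50%) were higher and 210 (1.16%) were lower. At an unadjusted p under 0.05 by edgeR, 9 members were higher and 2 were lower, against 1943 higher and 1227 lower among all 18048 tested genes. DESeq2 called 7 members higher and 1 lower, against 1003 higher and 500 lower among all genes. Its higher members included H2-Ea-ps, which did not pass the edgeR filter and whose reads came almost wholly from 2 libraries (given below). Limma-voom called 1 member higher and 0 lower, against 527 higher and 196 lower among all genes. The log2 change was positive for 23 members and negative for 10, with a median of 0.19, beside a median of 0.0049 over all tested genes. All 4 Tsc1-KO libraries stood above all 4 WT libraries for 4 members, against 7.09% of tested genes, and below them for 1 member, against 4.40%.

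**Figure D1:**
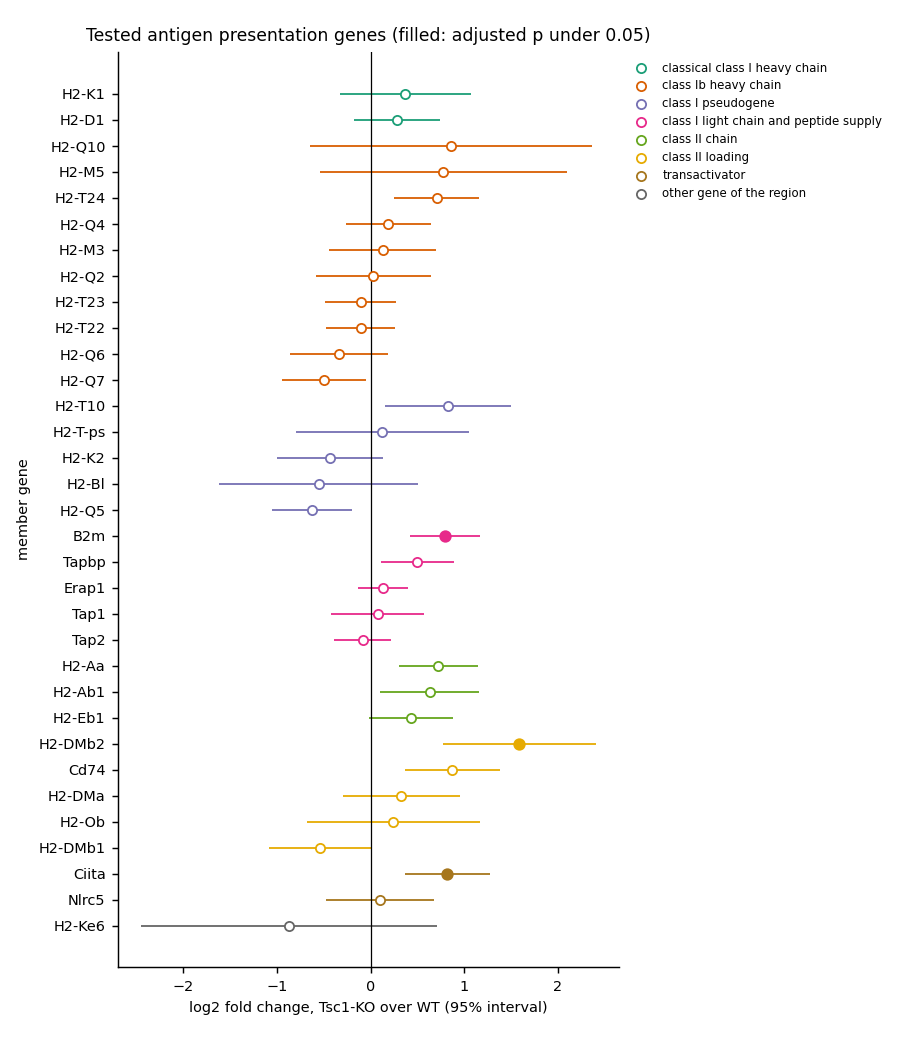
Log2 change (Tsc1-KO over WT, x axis) of the 33 tested members, grouped by role, with 95% intervals from the edgeR fit as bars. Filled points passed the adjusted p of 0.05 (B2m, Ciita and H2-DMb2), and open points did not.

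Members were ranked by level as FPKM, the authors' length-scaled values. Ratios, shares and marker sums given below in CPM or counts are not scaled by gene length. B2m was the most abundant member, at 351 ± 77.5 FPKM in Tsc1-KO kidneys and 205 ± 35.5 FPKM in WT kidneys (SD, n = 4 each). Cd74 averaged 155 ± 41.3 FPKM in Tsc1-KO kidneys and 85.5 ± 23.6 FPKM in WT kidneys. H2-K1 averaged 107 ± 59.8 FPKM in Tsc1-KO kidneys and 83.6 ± 11.9 FPKM in WT kidneys. The light chain, the invariant chain and the classical heavy chains thus headed the list in both genotypes, and Cd74, H2-K1 and H2-D1 lay within the spread of each other. Ciita, in contrast, averaged 0.67 ± 0.10 FPKM in Tsc1-KO kidneys and 0.39 ± 0.08 FPKM in WT kidneys.

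B2m encodes beta2-microglobulin, the light chain shared by all classical class I molecules and by several class I-like ones, and lies at chr2:122147686-122153083 on the plus strand. It had 268, 393, 246 and 315 CPM in Tsc1-KO libraries 5, 6, 7 and 8, against 192, 210.5, 145 and 158 CPM in WT libraries 1, 2, 3 and 4. Every Tsc1-KO library stood above every WT library. B2m was higher in Tsc1-KO kidneys (log2 fold change 0.79 ± 0.17 SE, edgeR adjusted p = 0.0219). The adjusted p was 0.0504 without Tsc1-KO 6, 0.0628 without Tsc1-KO 8, 0.0877 without WT 3 and 0.0745 without WT 4, with a log2 change between 0.65 and 0.88 over the 8 fits that left out 1 library. The log2 change was 0.89 among the libraries with Y-linked reads (adjusted p = 0.120) and 0.70 among those without (adjusted p = 0.191). The span of Patl2, a gene on the opposite strand that did not pass the filter, covers all of B2m, and the strand setting of the counting is not given in the sources used here.

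The heavy chains did not follow with a call. H2-K1, a classical heavy chain that carries peptide, had 183, 512, 228 and 203 CPM in Tsc1-KO libraries 5, 6, 7 and 8, against 245, 240.3, 204 and 181 CPM in WT libraries 1, 2, 3 and 4. H2-D1, the other classical heavy chain, had 207, 421, 222 and 239 CPM in Tsc1-KO libraries 5, 6, 7 and 8, against 239, 236, 228 and 194 CPM in WT libraries 1, 2, 3 and 4. For both genes Tsc1-KO 6 stood far above the 7 other libraries, which overlapped. The log2 change was 0.37 ± 0.31 SE for H2-K1 (edgeR adjusted p = 0.616) and 0.28 ± 0.21 SE for H2-D1 (edgeR adjusted p = 0.550). Without Tsc1-KO 6 the log2 change was -0.09 for H2-K1 and -0.0083 for H2-D1. The ratio of B2m to the sum of H2-K1 and H2-D1 in CPM averaged 0.592 ± 0.135 in Tsc1-KO kidneys and 0.399 ± 0.047 in WT kidneys (SD, n = 4 each), and Tsc1-KO 6, at 0.421, lay within the WT range of 0.334 to 0.442.

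**Figure D2:**
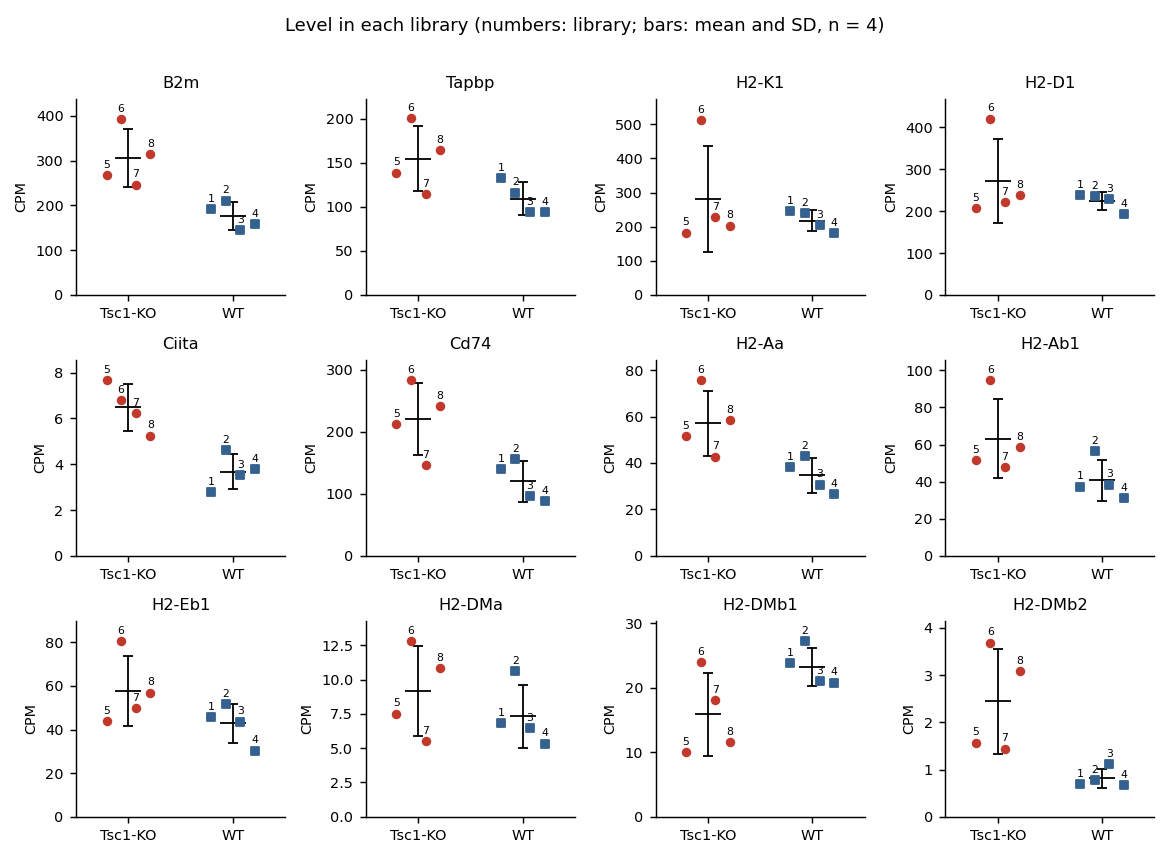
CPM of 12 members in each library on linear axes from 0, with Tsc1-KO as red circles and WT as blue squares, each point numbered by library, and the mean and SD of 4 libraries in black. B2m, Ciita and H2-DMb2 show no overlap between the genotypes, and the H2-K1 and H2-D1 panels show Tsc1-KO 6 at 512 and 421 CPM.

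None of the 4 genes that supply peptide to class I molecules (Tapbp, Tap1, Tap2 and Erap1) was called. Tapbp encodes tapasin, which holds empty class I molecules to the TAP transporter. It had 139, 200.4, 114 and 165 CPM in Tsc1-KO libraries 5, 6, 7 and 8, against 133, 116, 94.2 and 94.05 CPM in WT libraries 1, 2, 3 and 4. Tsc1-KO 7 lay below WT 1 and WT 2 (log2 change 0.50 ± 0.18 SE, edgeR adjusted p = 0.159), and the adjusted p was 0.0444 without Tsc1-KO 7. Tap1, 1 chain of the transporter, had 17.8, 28.5, 16.1 and 22.5 CPM in Tsc1-KO libraries 5, 6, 7 and 8, against 20.7, 28.3, 16.2 and 15.4 CPM in WT libraries 1, 2, 3 and 4. Tap2, its partner chain, had 19.4, 24.5, 17.2 and 17.8 CPM in Tsc1-KO libraries 5, 6, 7 and 8, against 22.4, 22.4, 20.3 and 18.6 CPM in WT libraries 1, 2, 3 and 4. Both chains of the transporter overlapped between the genotypes, with a log2 change of 0.07 for Tap1 (edgeR adjusted p = 0.918) and -0.09 for Tap2 (edgeR adjusted p = 0.824). Erap1, the aminopeptidase that trims peptides to length, had 46.8, 39.2, 47.0 and 45.4 CPM in Tsc1-KO libraries 5, 6, 7 and 8, against 33.6, 44.7, 38.2 and 45.9 CPM in WT libraries 1, 2, 3 and 4, and also overlapped (log2 change 0.14 ± 0.12 SE, edgeR adjusted p = 0.641). Nlrc5 had 6.08, 5.42, 5.12 and 5.31 CPM in Tsc1-KO libraries 5, 6, 7 and 8, against 2.97, 7.71, 4.18 and 5.63 CPM in WT libraries 1, 2, 3 and 4. The WT libraries spanned the Tsc1-KO ones (log2 change 0.10 ± 0.26 SE, edgeR adjusted p = 0.904).

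The non-classical (class Ib) heavy chains went in both directions and none was called by edgeR among the 10 tested. H2-T23 encodes Qa-1, which presents leader peptides to receptors of NK and T cells. It had 91.2, 117, 83.9 and 75.5 CPM in Tsc1-KO libraries 5, 6, 7 and 8, against 125, 100.4, 96.95 and 73.8 CPM in WT libraries 1, 2, 3 and 4. These values overlapped (log2 change -0.11 ± 0.17 SE, edgeR adjusted p = 0.824). H2-Q10, best known as a secreted class I molecule made in liver, had 1.64, 4.98, 2.80 and 0.254 CPM in Tsc1-KO libraries 5, 6, 7 and 8, against 1.45, 2.13, 0.777 and 0.969 CPM in WT libraries 1, 2, 3 and 4. Tsc1-KO 6 was the highest library and Tsc1-KO 8 the lowest of all 8 (log2 change 0.86 ± 0.67 SE, edgeR adjusted p = 0.584). H2-M3, which presents formylated peptides, had 2.87, 4.19, 3.49 and 2.70 CPM in Tsc1-KO libraries 5, 6, 7 and 8, against 3.91, 3.14, 1.89 and 3.17 CPM in WT libraries 1, 2, 3 and 4. It overlapped as well (log2 change 0.13 ± 0.26 SE, edgeR adjusted p = 0.864).

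Of the other class Ib genes, H2-T24 had 13.2, 6.91, 8.55 and 11.9 CPM in Tsc1-KO libraries 5, 6, 7 and 8, against 6.27, 6.24, 6.07 and 6.30 CPM in WT libraries 1, 2, 3 and 4. All 4 Tsc1-KO libraries stood above the WT libraries, which lay close together, and the test was not passed (log2 change 0.70 ± 0.21 SE, edgeR adjusted p = 0.0840). The adjusted p of H2-T24 was 0.0296 by DESeq2 and 0.0354 by edgeR without Tsc1-KO 6, and with Tsc1-KO 5 and 8 left out its log2 change was 0.31 (adjusted p = 0.633). H2-Q7 had a log2 change of -0.50 (edgeR adjusted p = 0.233), and without Tsc1-KO 6 its change was -0.76 with an adjusted p of 0.0170. With Tsc1-KO 5 and 8 left out the log2 change of H2-Q7 was -0.19 (adjusted p = 0.823). The remaining tested class Ib genes H2-Q2, H2-Q4, H2-Q6, H2-T22 and H2-M5 had log2 changes between -0.34 and 0.78, all with overlap. Among the class I pseudogenes, H2-Q5 was below every WT library in all Tsc1-KO libraries (log2 change -0.62 ± 0.19 SE, adjusted p = 0.107 by edgeR and 0.0332 by DESeq2), and H2-T10 had a log2 change of 0.83 ± 0.31 SE (edgeR adjusted p = 0.180). H2-K2, H2-Bl and H2-T-ps had log2 changes of -0.43, -0.55 and 0.12. Of these genes, H2-Q5, H2-T10 and H2-Bl are annotated as polymorphic pseudogenes, and H2-K2 and H2-T-ps as unprocessed pseudogenes.

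Exact sequence shared between genes limits these values. In GENCODE transcripts, 14.01% of the 100-base windows of H2-Q5, 12.0% of H2-Q7, 10.8% of H2-Q6 and 8.86% of H2-T22 stood also in another gene, against 0.957% of H2-K1 and 3.59% of H2-D1. H2-Ke6, a gene of the region with a role outside antigen presentation, shared 61.6% of its windows with Gm20427, and its log2 change was -0.87 ± 0.72 SE (edgeR adjusted p = 0.604). Reads from such windows may be split or dropped by the counting. Overlap of gene spans is a further limit, and 15 members overlapped another gene on either strand. A930015D03Rik, on the opposite strand, covers all of H2-T24 and of H2-T23. Gm7030, on the same strand, covers all of H2-T10.

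The 3 tested class II chains had log2 changes of 0.43 to 0.72, and none was called by edgeR, while DESeq2 called H2-Aa higher (adjusted p = 0.0156). H2-Aa encodes the alpha chain of I-A. It had 51.5, 75.7, 42.8 and 58.4 CPM in Tsc1-KO libraries 5, 6, 7 and 8, against 38.3, 43.1, 30.6 and 26.5 CPM in WT libraries 1, 2, 3 and 4. Only Tsc1-KO 7 lay below a WT library (WT 2), and the log2 change was 0.72 ± 0.19 SE (edgeR adjusted p = 0.0619). H2-Ab1, the beta chain of I-A, had 51.4, 94.5, 48.0 and 58.7 CPM in Tsc1-KO libraries 5, 6, 7 and 8, against 37.3, 56.6, 38.3 and 31.002 CPM in WT libraries 1, 2, 3 and 4. WT 2 stood above Tsc1-KO 5 and Tsc1-KO 7 (log2 change 0.63 ± 0.24 SE, edgeR adjusted p = 0.199). H2-Eb1, the beta chain of I-E, had 43.7, 80.7, 49.7 and 56.9 CPM in Tsc1-KO libraries 5, 6, 7 and 8, against 45.7, 51.7, 43.7 and 30.3 CPM in WT libraries 1, 2, 3 and 4. The genotypes overlapped (log2 change 0.43 ± 0.21 SE, edgeR adjusted p = 0.315).

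Cd74 encodes the invariant chain, which fills the class II groove until peptide is loaded. It had 212, 283, 146 and 242 CPM in Tsc1-KO libraries 5, 6, 7 and 8, against 140.2, 156, 96.8 and 88.1 CPM in WT libraries 1, 2, 3 and 4. Tsc1-KO 7 lay between WT 1 and WT 2, and the other Tsc1-KO libraries stood above all WT libraries (log2 change 0.87 ± 0.23 SE, edgeR adjusted p = 0.0614). DESeq2 called Cd74 higher (adjusted p = 0.0056). Without Tsc1-KO 7 the adjusted p by edgeR was 0.0119 for Cd74 and 0.0196 for H2-Aa. With Y-linked reads as a term in the fit it was 0.0087 for Cd74 and 0.0142 for H2-Aa.

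The DM molecule, which exchanges the invariant chain remnant for peptide, differed between its beta chain genes. H2-DMb2 (chr17:34143307-34151553, plus strand) had 1.57, 3.69, 1.45 and 3.09 CPM in Tsc1-KO libraries 5, 6, 7 and 8, against 0.688, 0.775, 1.11 and 0.671 CPM in WT libraries 1, 2, 3 and 4. Every Tsc1-KO library stood above every WT library, and H2-DMb2 was higher in Tsc1-KO kidneys (log2 fold change 1.59 ± 0.37 SE, edgeR adjusted p = 0.0351). These levels rested on 46 to 111 reads per Tsc1-KO library and 18 to 30 per WT library. The adjusted p was 0.101 without Tsc1-KO 6, 0.103 without Tsc1-KO 8, 0.0968 without WT 1, 0.0920 without WT 2, 0.0591 without WT 3 and 0.0946 without WT 4. It was 0.0847 by limma-voom.

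H2-DMb1, the more abundant beta chain gene, had 9.98, 23.96, 18.1 and 11.6 CPM in Tsc1-KO libraries 5, 6, 7 and 8, against 23.8, 27.2, 21.02 and 20.8 CPM in WT libraries 1, 2, 3 and 4. Tsc1-KO 6 lay within the WT range and the other Tsc1-KO libraries below it (log2 change -0.54 ± 0.25 SE, edgeR adjusted p = 0.285). H2-DMb2 made up 13.8 ± 5.59% of the counts of both beta chain genes in Tsc1-KO kidneys and 3.43 ± 1.07% in WT kidneys (SD, n = 4 each). The sum of both averaged 18.4 ± 7.02 CPM in Tsc1-KO kidneys and 24.01 ± 2.95 CPM in WT kidneys. The genes shared 10.3% of the windows of H2-DMb2 and 11.3% of those of H2-DMb1, so that the split of reads between them is uncertain. H2-DMa, the alpha chain of DM, had 7.51, 12.8, 5.53 and 10.8 CPM in Tsc1-KO libraries 5, 6, 7 and 8, against 6.81, 10.6, 6.48 and 5.33 CPM in WT libraries 1, 2, 3 and 4. It overlapped between the genotypes (log2 change 0.33 ± 0.28 SE, edgeR adjusted p = 0.623).

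The DO molecule holds DM back and is known from B cells. H2-Ob, its beta chain, had 0.868, 2.23, 1.70 and 0.604 CPM in Tsc1-KO libraries 5, 6, 7 and 8, against 1.20, 1.47, 1.11 and 0.783 CPM in WT libraries 1, 2, 3 and 4. The genotypes overlapped (log2 change 0.24 ± 0.42 SE, edgeR adjusted p = 0.840). H2-Oa, its alpha chain, had 13, 33, 6 and 7 reads in Tsc1-KO libraries 5, 6, 7 and 8, against 5, 2, 8 and 5 reads in WT libraries 1, 2, 3 and 4, and was not tested.

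Ciita (chr16:10480059-10528418, plus strand) had 7.68, 6.81, 6.22 and 5.25 CPM in Tsc1-KO libraries 5, 6, 7 and 8, against 2.79, 4.61, 3.52 and 3.80 CPM in WT libraries 1, 2, 3 and 4. All 4 Tsc1-KO libraries stood above the WT libraries, and Ciita was higher in Tsc1-KO kidneys (log2 fold change 0.82 ± 0.21 SE, edgeR adjusted p = 0.0483). Each of the 8 fits that left out 1 library (Tsc1-KO 5, 6, 7 or 8, or WT 1, 2, 3 or 4) put the adjusted p between 0.0525 and 0.136, while the log2 change stayed between 0.70 and 0.93. It was 0.0521 with RLE scaling and 0.0529 by limma-voom. The span of Dexi on the opposite strand covers 53.5% of Ciita, and Dexi had a log2 change of 0.22 (edgeR adjusted p = 0.595).

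H2-Ea-ps, the gene of the I-E alpha chain, is annotated as a pseudogene because C57BL/6 mice carry a deletion at its promoter and make no I-E alpha chain. It had 560, 1, 0 and 704 reads in Tsc1-KO libraries 5, 6, 7 and 8, and 0 reads in each of the 4 WT libraries. A count of 0 allows up to 3 reads per library, which is 0.109 to 0.116 CPM in the WT libraries, for counting error only. Tsc1-KO 5 and Tsc1-KO 8 therefore stood apart from the 6 other libraries, those of their own genotype included, and go against a label of one C57BL/6 background at this gene. H2-Ea-ps did not pass the filter, and with no filter its edgeR adjusted p was 0.504.

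Tsc1-KO 5 and Tsc1-KO 8 also stood together at other members, which were picked after their values were seen. H2-Q1 had 30 and 17 reads in Tsc1-KO 5 and 8 and 2 to 4 reads in the 6 other libraries. H2-T24 had 394 and 375 reads in Tsc1-KO 5 and 8, the most of the 8 libraries, and H2-DMb1 had 299 and 364 reads there, the fewest of the 8 libraries. H2-Q7 was likewise lowest in Tsc1-KO 5 and 8, at 391 and 485 reads. Reads were aligned to 1 reference, so a different allele sequence and a different amount of RNA cannot be told apart in these counts. With both libraries left out, which was chosen after these counts were seen, no member was called, and the log2 change was 0.86 for B2m (adjusted p = 0.104), 1.66 for H2-DMb2 (adjusted p = 0.120) and 0.82 for Ciita (adjusted p = 0.182).

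**Figure D3:**
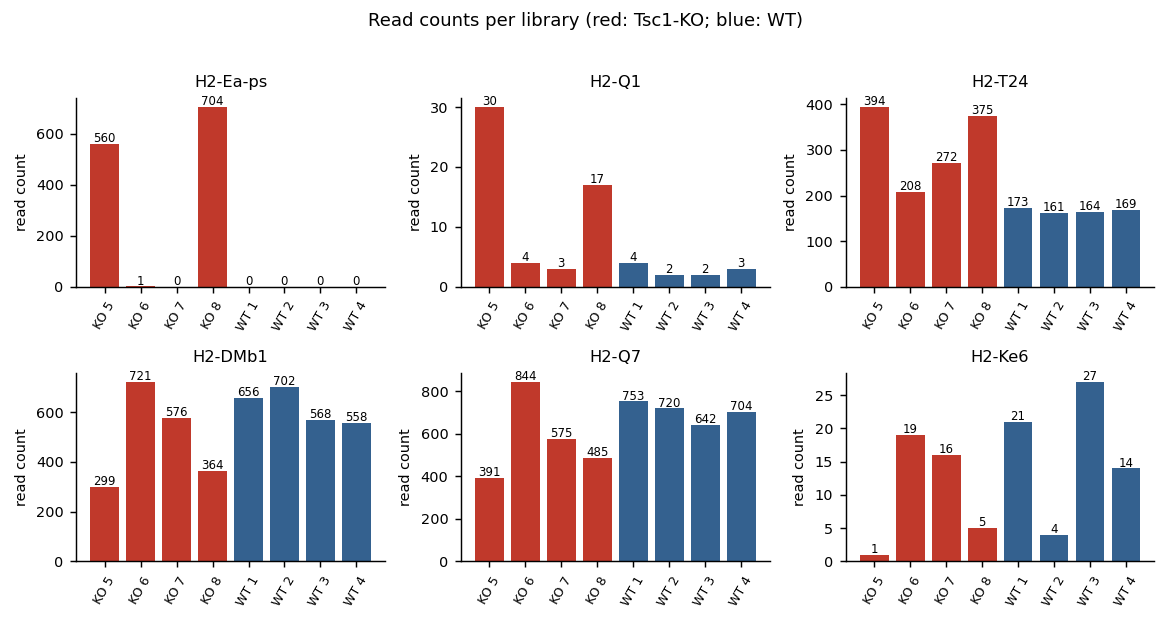
Read counts on linear axes from 0 for 6 members in each library, Tsc1-KO in red and WT in blue, with the count above each bar. H2-Ea-ps has 560 and 704 reads in Tsc1-KO 5 and 8 and at most 1 elsewhere, and H2-DMb1 and H2-Q7 are lowest in the same libraries.

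The other 8 untested members, H2-Q1, H2-M2, H2-M9, H2-M10.2, H2-M10.5, H2-Q3, H2-M6-ps and H2-Eb2, had 0 to 30 reads in any library. Apart from H2-Q1, none of them exceeded 12 reads.

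The members clustered in the genome. On chromosome 17, 38 of them lay between positions 33915899 and 37483552. In that stretch 107 other genes were tested, with a median log2 change of -0.06. Of these, C4b, a complement component (log2 change 2.53, edgeR adjusted p = 0.000115), and Tubb5, a beta-tubulin (log2 change 0.57, edgeR adjusted p = 0.0398), were higher, and 0 were lower.

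Tsc1-KO 6 stood above the rest for many members. It was the highest of all 8 libraries for 20 of 33 tested members, and over all tested genes it was the highest for 16.2%. WT 4 was the lowest for 11 of 33, against 12.1% of all tested genes. Sums of immune cell markers differed in which library was highest. The 12 macrophage and monocyte markers summed to 259 CPM in Tsc1-KO 6 and to 174 to 193 CPM in the other Tsc1-KO libraries. In WT libraries they summed to 133 to 160 CPM. The 9 B cell markers summed to 37.3 CPM in Tsc1-KO 6 and to 14.1 to 17.9 CPM in the other Tsc1-KO libraries, against 11.4 to 13.9 CPM in WT libraries. The 9 T cell markers summed to 20.97 CPM in Tsc1-KO 6 and to 10.1 to 10.8 CPM in the other Tsc1-KO libraries, against 6.59 to 10.1 CPM in WT libraries. The dendritic cell sum was 38.2, 36.0, 38.7 and 36.3 CPM in Tsc1-KO libraries 5, 6, 7 and 8, so that Tsc1-KO 6 was close to Tsc1-KO 8. This sum rested in large part on Zbtb46, the marker of its list with the highest CPM. Zbtb46 had 19.0, 15.95, 23.2 and 17.8 CPM in Tsc1-KO libraries 5, 6, 7 and 8, so the order of the dendritic cell sums may reflect that gene. The NK cell sum was highest in Tsc1-KO 7 (5.59 CPM). It was 2.14 to 5.59 CPM in Tsc1-KO libraries and 1.47 to 1.92 CPM in WT libraries. The neutrophil sum was highest in Tsc1-KO 8 (7.51 CPM) and overlapped between the genotypes. The 9 tubule and podocyte markers were lowest in Tsc1-KO 6, with 10359 to 13866 CPM in Tsc1-KO libraries and 14804 to 16019 CPM in WT libraries. The part of these cell types in the members' levels was not tested.

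Cells that carry class II, and other cell types for comparison, were represented by lists of markers. The 12 macrophage and monocyte markers summed to 174 to 259 CPM in Tsc1-KO libraries and 133 to 160 CPM in WT libraries, without overlap, and 3 of 12 tested were higher by edgeR, against 3.50% of all tested genes: Ccr2, a chemokine receptor of monocytes (log2 change 1.65), Lyz2, lysozyme (1.22), and Cx3cr1, the fractalkine receptor (0.87). DESeq2 also called C1qb, Cd14 and Cd68 higher. Csf1r, the marker of the list with the highest CPM, averaged 66.8 ± 11.4 CPM in Tsc1-KO kidneys and 74.1 ± 2.89 CPM in WT kidneys (log2 change -0.15, edgeR adjusted p = 0.606). The 11 dendritic cell markers summed to 36.0 to 38.7 CPM in Tsc1-KO libraries and 23.4 to 31.6 CPM in WT libraries, and 1 of 10 tested, the transcription factor Batf3, was higher (log2 change 1.39, edgeR adjusted p = 0.0140), and DESeq2 also called Itgax higher. Cd8b1 and Trac, of the CD8 co-receptor and the T cell receptor, were higher among 7 tested T cell markers (log2 changes 2.27 and 1.18). Cd8b1 averaged 0.876 ± 0.307 CPM in Tsc1-KO kidneys and 0.178 ± 0.115 CPM in WT kidneys (SD, n = 4 each). Cd8a, the chain of the same co-receptor with the higher CPM, averaged 2.30 ± 1.14 CPM in Tsc1-KO kidneys and 3.45 ± 1.04 CPM in WT kidneys (log2 change -0.58, edgeR adjusted p = 0.438). DESeq2 also called Lck higher, and limma-voom called only Cd8b1 of this list. No marker was called among 8 tested B cell, 4 NK cell, 2 neutrophil, 9 endothelial, 5 red blood cell and 7 fibroblast and pericyte genes, of which 2, 2, 0, 0, 0 and 0 had an unadjusted p under 0.05 by edgeR. In these lists DESeq2 called 1 gene, the NK cell marker Nkg7, and limma-voom called 0. No marker in the table was at 0 in all 8 libraries. Slc4a1 was higher and Slc34a1 lower among 9 kidney markers (log2 changes 1.12 and -0.65).

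**Figure D4:**
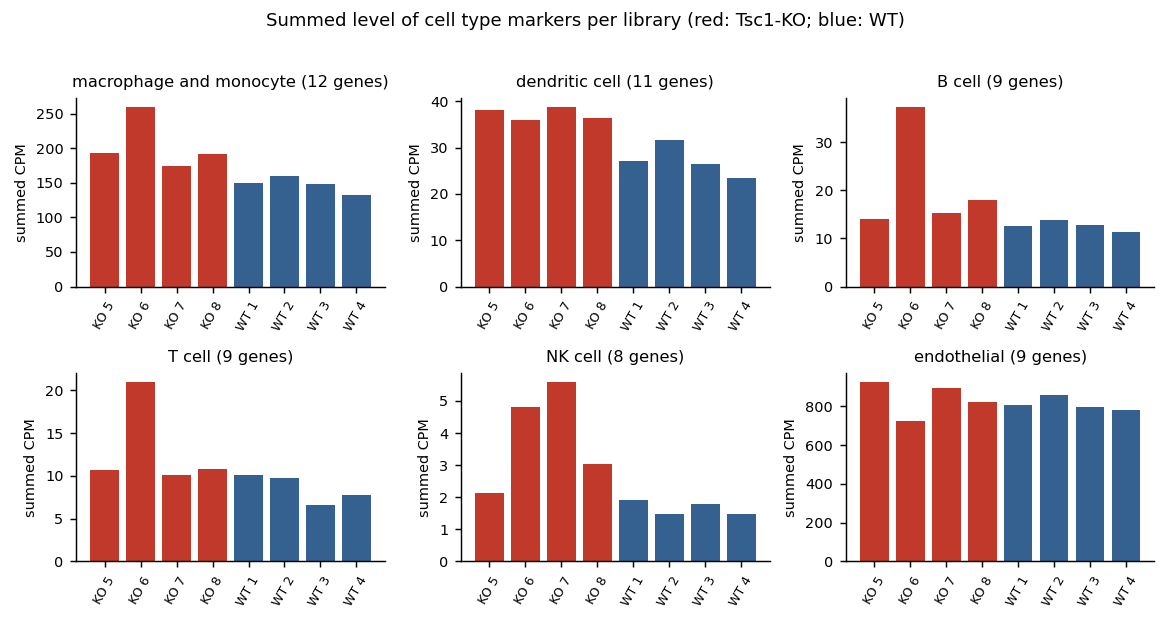
Summed CPM of fixed marker lists per library on linear axes from 0, Tsc1-KO in red and WT in blue. Macrophage, dendritic, B, T and NK cell sums are higher in every Tsc1-KO library than in any WT library. The T cell margin is narrow (lowest Tsc1-KO 10.148 CPM, highest WT 10.145 CPM), and so is the B cell margin (lowest Tsc1-KO 14.05 CPM, highest WT 13.88 CPM). Endothelial sums overlap. The macrophage, B cell and T cell sums are highest in Tsc1-KO 6.

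Other genes of the pathway were read from lists. Of 11 tested genes of class I processing and loading, among them the immunoproteasome subunits Psmb8, Psmb9 and Psmb10, 0 were called (2 at an unadjusted p under 0.05 by edgeR, both higher, and 0 called by DESeq2 or limma-voom), with a median log2 change of 0.17. Of 10 tested genes of class II processing, the cysteine protease Ctsh was lower (log2 change -0.44, edgeR adjusted p = 0.0497) and the median was 0.0084. Limma-voom called 0 genes of this list, and DESeq2 called Ctsh lower and the aspartic protease Ctsd higher, whose log2 change was 0.69 (edgeR adjusted p = 0.0649). Of 8 tested class I-like genes outside the H2 region, Cd1d2, a lipid-presenting molecule, was higher (log2 change 2.70, edgeR adjusted p = 0.0108), and DESeq2 also called Mr1 and Ulbp1 higher. Of 13 MHC transcription factors, Spi1, the myeloid factor PU.1, was higher (log2 change 0.999, edgeR adjusted p = 0.0298), a call that limma-voom did not make. Of 9 tested genes of interferon gamma and JAK-STAT signaling, Socs3, an inhibitor of cytokine signaling (log2 change 1.63, edgeR adjusted p = 0.0123), and Stat3 (0.70, edgeR adjusted p = 0.0128) were higher. Of 6 tested costimulation and checkpoint genes, 0 were called (2 at an unadjusted p under 0.05 by edgeR, 0 called by DESeq2 or limma-voom). Ifng itself had 0 to 0.112 CPM and was not tested.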

How the data were processed

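Total kidney RNA of 4 Tsc1-KO and 4 WT libraries was analysed from the deposited table. Per the labels, RNA was selected for poly(A) and sequenced on an Illumina HiSeq system. The authors made a raw read count per gene and library, with HISAT2 2.0.4 and HTSeq 0.9.1 among the tools in the submitters' processing notes. The authors also deposited FPKM (fragments scaled by gene length and library total), used here only to compare levels between genes. The deposited normalized signal, the authors' fold changes and p-values, and the other sheets, which repeat the full table, were not used. Genome build and strand setting: not given in the sources used here. All 43 members were found in GENCODE M21 (GRCm38) and 31 had the same position, as had 29756 of 30551 shared genes, so positions are given as in GRCm38.

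Counts were tested in R 4.3.3 with edgeR 4.0.16 (filterByExpr with minimum count 10, TMM, robust quasi-likelihood fit, two-sided, Benjamini-Hochberg over 18048 genes, called under 0.05). The genes not tested held 0.116% of counts. CPM were scaled with TMM (factors 1.01 to 1.05 in Tsc1-KO and 0.961 to 0.979 in WT), given as mean ± SD of 4 libraries. Alternatives used RLE scaling, no filter, DESeq2 1.42.0, limma 3.58.1 (voom), Y-linked reads as a term or a stratum, and each library left out. The members and lists were chosen with earlier results of these data known. Named genes were the members of the classical, loading and class II groups, H2-T23, H2-Q10 and H2-M3, other called members, and up to 4 called genes of each list by smallest adjusted p. H2-T24, H2-Q7, H2-Q5, H2-T10, H2-Q1, Cd8a, Csf1r, Zbtb46, Ctsd, Ifng, Psmb8, Psmb9, Psmb10, C4b and Tubb5 were added after their values were seen. Libraries had no molecular identifiers stated, so limits cover counting error only.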

Additional observations from a re-analysis of the deposited data

Results flagged for a closer look

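The 86 groups of 4 libraries were screened for a highest or lowest library far from the others, and 6 were found. Groups with 0 reads in every library were skipped. Chance flags about 1 in 20 groups of normally distributed values, a rate that does not hold for counts near 0. H2-K1 at 512 CPM and H2-D1 at 421 CPM in Tsc1-KO 6 stood far above the other Tsc1-KO libraries. The other 4 rest on 2 to 4 reads in 1 WT library with 0 in the rest: H2-M9 at 0.149 CPM in WT 4, H2-M10.2 at 0.074 CPM and H2-M10.5 at 0.074 CPM in WT 3, and H2-Q3 at 0.0775 CPM in WT 2. In a group of that form any read leads to a flag, so these 4 carry no information.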

How the results depend on the processing

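No paired analysis was possible because the libraries of the genotypes share no replicate number. Genes higher in Tsc1-KO numbered 632, against 1003 by DESeq2, 35 among libraries with Y-linked reads, 248 among those without, 200 with Tsc1-KO 5 and 8 left out, and 321 to 833 with 1 library left out. Genes lower numbered 210, against 500 by DESeq2, 322 with Y-linked reads as a term, 23 and 110 within the strata with and without Y-linked reads, 71 with Tsc1-KO 5 and 8 left out, and 107 to 373 with 1 library left out. Members higher numbered 3, against 7 by DESeq2 (H2-Ea-ps included), 1 by limma-voom, 5 with the Y-linked term, 0 in each stratum, 0 without Tsc1-KO 5 and 8, and 0 to 5 with 1 library left out (0 without Tsc1-KO 8, WT 3 or WT 4). Members lower numbered 0, against 1 by DESeq2 (H2-Q5) and 0 to 1 with 1 library left out (H2-Q7 without Tsc1-KO 6). Uncalled members changed sign with 1 library left out, over ranges of -0.090 to 0.53 for H2-K1, -0.0083 to 0.39 for H2-D1, -0.27 to 0.16 for H2-Q2, -0.076 to 0.32 for H2-Q4, -0.25 to 0.017 for H2-T23, -0.057 to 0.27 for H2-M3, -0.11 to 0.41 for H2-T-ps, -0.10 to 0.27 for Tap1, -0.11 to 0.48 for H2-Ob and -0.10 to 0.35 for Nlrc5 (log2). H2-Q2 was at -0.039 by limma-voom, -0.0097 with the Y-linked term and -0.25 among libraries with Y-linked reads. H2-M3 was at -0.021 and Tap1 at -0.10 among libraries without them. H2-T22 was at 0.17 and H2-T23 at 0.020 without Tsc1-KO 5 and 8. The causes were not tested, beyond the smaller number of libraries in some fits. Low counts limit H2-DMb2 and the untested members.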
